A study of Mus musculus with 2 samples.

Results

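The Stat genes encode transcription factors that carry cytokine signals from receptors at the cell surface to the nucleus. This account covers 6 of them, Stat2, Stat3, Stat4, Stat5a, Stat5b and Stat6, as measured in sorted regulatory T cells (Treg). Treg are the CD4-positive lymphocytes that hold immune responses in check. Every probe set that the platform annotation pairs with exactly 1 of these 6 gene symbols was taken, which gave 13 of the 45101 probe sets on the array. In all, 34958 probe sets were paired with a single symbol, for 18194 genes. The rule itself goes by gene symbol and uses no measured value.

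Treg of females between 6 and 8 weeks of age were sorted from lymph nodes and spleen, and RNA from each of 2 genotypes was hybridised to 1 Affymetrix array. The first genotype was Foxp3 Cre/wtS with both Stat3 alleles floxed (Stat3 fl/fl), and the other was Foxp3 Cre/wtS with 1 floxed and 1 wild-type Stat3 allele (Stat3 fl/wt). For the fl/fl mice the design text spells the Foxp3 genotype Cre/wt. Both genotypes therefore carried Cre at 1 Foxp3 allele and at least 1 floxed Stat3 allele, and no array of mice without Cre was analysed here. Because Foxp3 is X-linked, females with Cre at 1 allele are mosaic, and Cre is made only where the X that carries it is active. Whether the sort kept to the cells with Cre is not stated in the labels, nor are the number of mice behind an array or the floxed exons.

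In the Jak-Stat pathway a cytokine brings together receptor chains that hold Janus kinases, the kinases phosphorylate the receptor, and a Stat protein docks there, is itself phosphorylated, pairs with a further Stat and enters the nucleus. Most Stat pairs bind DNA letters of the form TTCNNNGAA, whereas Stat2 works with Irf9 at interferon response elements, which contain repeats of GAAA. In Treg, Stat5a and Stat5b relay IL-2 and sustain Foxp3, and Stat3 relays IL-6, IL-10 and related cytokines. Stat6 relays IL-4, Stat4 relays IL-12, and Stat2 relays type I interferon.

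Levels are log2 values as deposited, and a difference is the fl/fl level minus the fl/wt level on the same scale. A probe set was called measured when it was at or above log2 5 in both arrays, because dim values from this method crowd together and have no order. With 1 array per genotype no difference has a replicate check, so no test was run and each difference describes these 2 arrays. Probe sets differ in how well they bind, so ranks within an array place a probe set among all others and do not order the transcripts of different genes. A level in sorted cells cannot tell fewer cells that make a transcript from less RNA per cell.

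All 6 Stat genes had at least 1 measured probe set, and none differed between the genotypes by 1.5-fold or more. Stat2 was furthest apart, higher in fl/fl by 0.21 on the log2 scale, and Stat5a was next, higher by 0.13. Stat3, the floxed gene, differed by -0.0083 at its brightest probe set. The count of 0 of 6 genes past 1.5-fold stands beside 0.645% of all 9774 genes that reached log2 5 in at least 1 array, made up of 0.246% higher and 0.399% lower in fl/fl. Read by their brightest probe set, 2 of the 6 genes were higher and 4 lower, against 47.5% higher over all genes. The family median was -0.023, and the median over all genes was -0.0045.

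Of the 13 probe sets, 11 were measured, and 8 of these differed by less than 0.1 in size. None of the 11 passed 1.5-fold, against 0.649% of all 16499 measured probe sets of a single symbol. The measured differences ran from -0.083, at a Stat3 probe set, to 0.34, at a Stat2 probe set, with a median size of 0.049. Scatter between the arrays shrank with level. The central 95% of measured single-symbol probe sets ran from -0.62 to 0.47 between log2 5 and 6, and from -0.11 to 0.11 between log2 12 and 13. Near log2 5 this leaves out probe sets that were under 5 in 1 array. No measured Stat probe set lay outside the central 95% of its own level unit, and 6 of 11 differed by more than the median size of that unit.

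**Figure D1:**
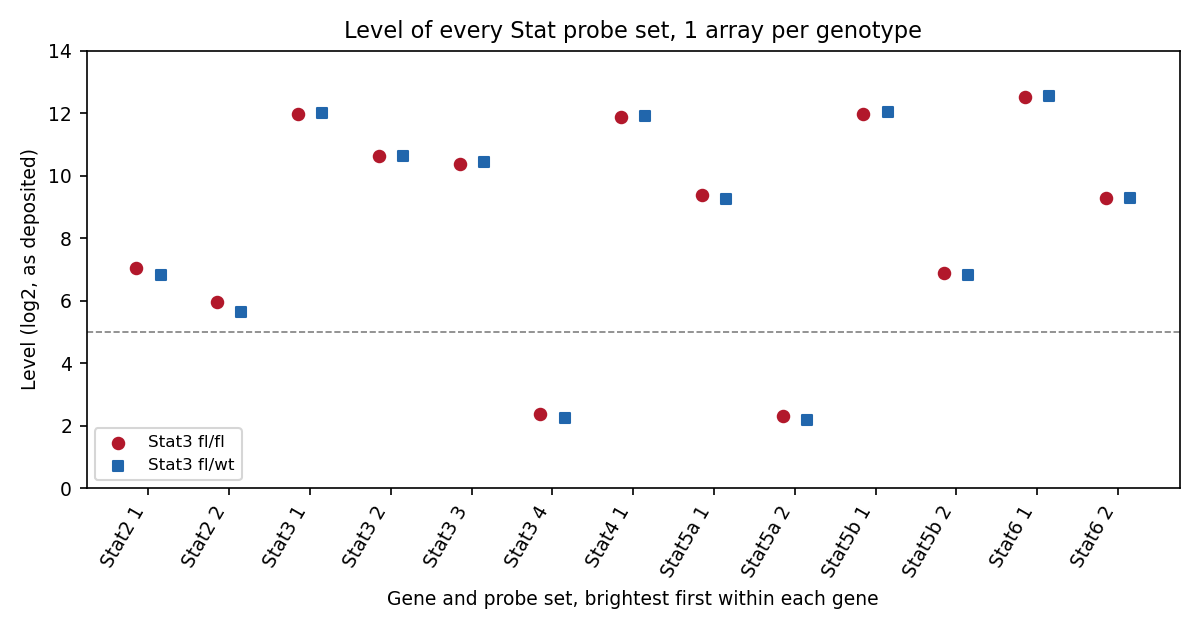
Level (log2, as deposited) of the 13 probe sets of the 6 Stat genes, with the fl/fl array as circles and the fl/wt array as squares, and probe sets of a gene numbered from the brightest. Each pair of points lies close together, and 1 probe set of Stat3 and 1 of Stat5a are under the dashed line at log2 5 in both arrays.

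Stat2 is the Stat that joins Irf9 after type I interferon binds its receptor. Its brighter probe set read 7.04 in fl/fl and 6.83 in fl/wt, a difference of 0.21 or 1.16-fold. This placed it above 64.3% of all probe sets in fl/fl and above 63.3% in fl/wt. Its dimmer probe set read 5.97 in fl/fl and 5.63 in fl/wt, a difference of 0.34 or 1.27-fold.

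Both Stat2 probe sets were thus higher in the fl/fl array, and the dimmer one was further apart. Both were also dim for this family, in the range where the arrays scatter most. Of the 1437 probe sets between log2 6 and 7, 29.3% differed at least as far as the brighter one, and of the 1047 between log2 5 and 6, 16.5% differed at least as far as the dimmer one. At gene level, 8.82% of all genes differed by 0.2 or more in either direction. Both of a gene's brightest measured probe sets were higher in fl/fl by at least 0.2 in 7 of 4228 genes with a second measured probe set, or 0.166%, and Stat2 is 1 of these 7. In another 17 genes both were lower by at least 0.2, which makes 0.568% in either direction. These shares and the 8.82% pool all levels. Scatter is wider at the dim levels of Stat2, so the shares are not matched to it. That limit of 0.2 was set after the Stat2 values were seen, so the count describes where Stat2 lies and supports nothing. Itgax, the only measured marker of the dendritic list, lay at a like level and differed by 0.20. The other 4 markers of that list were under log2 5 in both arrays. Measured markers of B cells, CD8 and NK cells and red cells went both ways. Cd8b1 (0.27) and Cd79a (0.16) were higher in fl/fl, and Ms4a1 (-0.34) and Alas2 (-0.28) were lower. A second Ms4a1 probe set differed by 0.28. The part of dendritic or other cells in the Stat2 difference was not tested.

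The Stat2 start region is shown because it holds the letters of an interferon response element, the kind of site through which Stat2 itself acts. The window runs from 250 bases before to 50 bases after the start in RefSeq GRCm38.p6, chr10:128270248-128270547, plus strand, and capitals mark the match to GAAANNGAAA, here read on the opposite strand.
Stat2: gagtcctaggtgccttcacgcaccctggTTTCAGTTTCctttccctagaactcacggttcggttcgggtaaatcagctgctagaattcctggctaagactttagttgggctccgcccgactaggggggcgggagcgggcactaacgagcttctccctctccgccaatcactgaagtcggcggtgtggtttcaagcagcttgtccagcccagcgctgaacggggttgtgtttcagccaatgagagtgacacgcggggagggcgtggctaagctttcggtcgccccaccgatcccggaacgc
The match covers bases 29 to 38 of the window. A match on either strand was found in 3.44% of 32851 such windows. Of the 9 windows of the 6 Stat genes, 2 held one, the other belonging to a second start of Stat4. The Stat2 window also held 1 match to TTCNNNNGAA, a spacing that Stat6 prefers, found in 6.95% of windows. No window of the 6 genes held TTCNNNGAA, which occurs in 8.30% of all windows. Matches of letters do not show that a factor binds there.

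Stat3 is the gene that Cre was meant to remove, and it had 4 probe sets. The brightest read 11.99 in fl/fl and 12.00 in fl/wt. The next read 10.63 in fl/fl and 10.65 in fl/wt, and the third 10.37 in fl/fl and 10.45 in fl/wt. All 3 were lower in fl/fl, with differences of -0.0083, -0.019 and -0.083.

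The largest of these, a difference of -0.083, left the level in fl/fl at 0.944 of that in fl/wt. Among the 2440 probe sets between log2 10 and 11, 25.98% differed at least that far, and 79.4% differed at least as far as the second probe set. Between log2 11 and 12, 88.6% of 1999 probe sets differed at least as far as the brightest Stat3 probe set. The dimmest Stat3 probe set was under log2 5 in both arrays, at 2.36 in fl/fl and 2.26 in fl/wt, where values have no order. The 4 probe sets spanned 9.68 log2 units, a spread reached by 8.03% of the 6162 genes with several probe sets, at least 1 of them at or above log2 5 on average. The position of these probe sets within the gene, and so whether they read floxed exons, is not given by the annotation used, so these values do not check the genotype labels, and every direction rests on the labels.

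Stat5a and Stat5b are close copies of each other that relay IL-2. The annotation used does not say whether each probe set separates them. The brighter Stat5b probe set read 11.98 in fl/fl and 12.05 in fl/wt, a difference of -0.077. The dimmer read 6.87 in fl/fl and 6.82 in fl/wt, a difference of 0.049. The probe sets of Stat5b thus went opposite ways, and they lay 5.17 log2 units apart in level, near the median gap of 5.37 over all such genes. Between log2 12 and 13, 13.9% of 1380 probe sets differed at least as far as the brighter Stat5b probe set. This was the lowest such share for any measured Stat probe set. Its mean level lay close to the edge at log2 12, and scatter is wider in the unit below, so that rank may depend on the unit edges.

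Stat5a read 9.37 in fl/fl and 9.24 in fl/wt, a difference of 0.13 or 1.09-fold. Of the 2613 probe sets between log2 9 and 10, 19.3% differed at least that far. Its other probe set was under log2 5 in both arrays, at 2.30 in fl/fl and 2.19 in fl/wt, which leaves Stat5a with 1 measured probe set. The brightest probe sets of the Stat5 genes had opposite signs, and no test of that contrast is possible with 1 array each.

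Stat5b, Stat5a and Stat3 lie next to each other on mouse chromosome 11 in the RefSeq order of GRCm38.p6, so the floxed gene borders Stat5a. Of the 3 protein-coding genes that follow on the Stat3 side, Cavin1 was under log2 5 in both arrays. Atp6v0a1, a subunit of the vacuolar proton pump, read 6.96 in fl/fl and 6.62 in fl/wt, and the lysosomal enzyme Naglu read 9.24 in fl/fl and 9.43 in fl/wt. Beyond Stat5b, Ghdc and Hcrt were under log2 5 in both arrays. The differences of Atp6v0a1 (0.34) and Naglu (-0.18) had opposite signs, each came from 1 measured probe set, and each lay inside the central 95% at its level, which ran from -0.52 to 0.47 for Atp6v0a1 and from -0.20 to 0.19 for Naglu. These neighbours were looked up after the Stat values were seen.

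Stat6, which relays IL-4 and IL-13, had the brightest probe set of the family. It read 12.51 in fl/fl and 12.56 in fl/wt, above 95.03% of all probe sets in fl/fl and 95.14% in fl/wt. Its difference was -0.043. The dimmer Stat6 probe set read 9.28 in both arrays, a difference of 0.0064.

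Stat6 thus showed the closest agreement of any single measured Stat probe set, at the dimmer one, where 93.9% of probe sets at that level differed at least as far. Of probe sets at the level of the brighter one, 37.7% did. The Stat6 signs differed between the probe sets.

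Stat4, which relays IL-12 and directs interferon gamma production in helper cells, had a single probe set. It read 11.88 in fl/fl and 11.92 in fl/wt, a difference of -0.037. This was above 92.6% of probe sets in fl/fl and 92.7% in fl/wt, and 54.4% of probe sets at that level differed at least as far. With no second probe set, the Stat4 value has no check within the array.

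**Figure D2:**
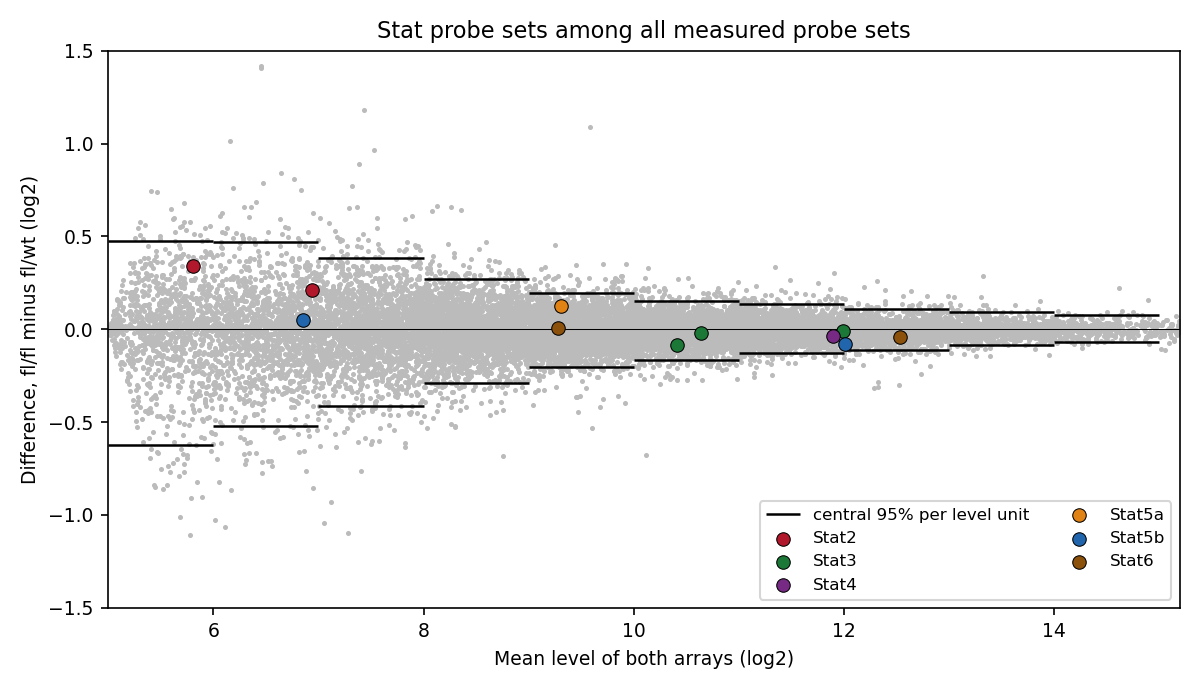
Difference, fl/fl minus fl/wt (log2), against the mean level of both arrays (log2), for measured probe sets of a single gene symbol in grey and the 11 measured Stat probe sets in colour. Black lines bound the central 95% of probe sets in each level unit; all Stat points lie within them, the Stat2 points highest at 0.21 and 0.34, and 80 grey points fall outside the axes.

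Of the 6 genes, 5 had several probe sets and 4 had at least a second measured one. The brightest and the next measured probe set had the same sign for Stat2 and Stat3 and opposite signs for Stat5b and Stat6. Over all 4228 such genes, 50.4% of pairs had the same sign. The SD between measured probe sets of a gene was 0.12, taken from the differences of these pairs. Of the 6 genes read by their brightest probe set, Stat2 and Stat5a had differences larger than this, Stat5a only narrowly (0.125 against 0.123). This SD pools all levels, although scatter shrinks with level, and so it does not compare genes of unlike level.

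**Figure D3:**
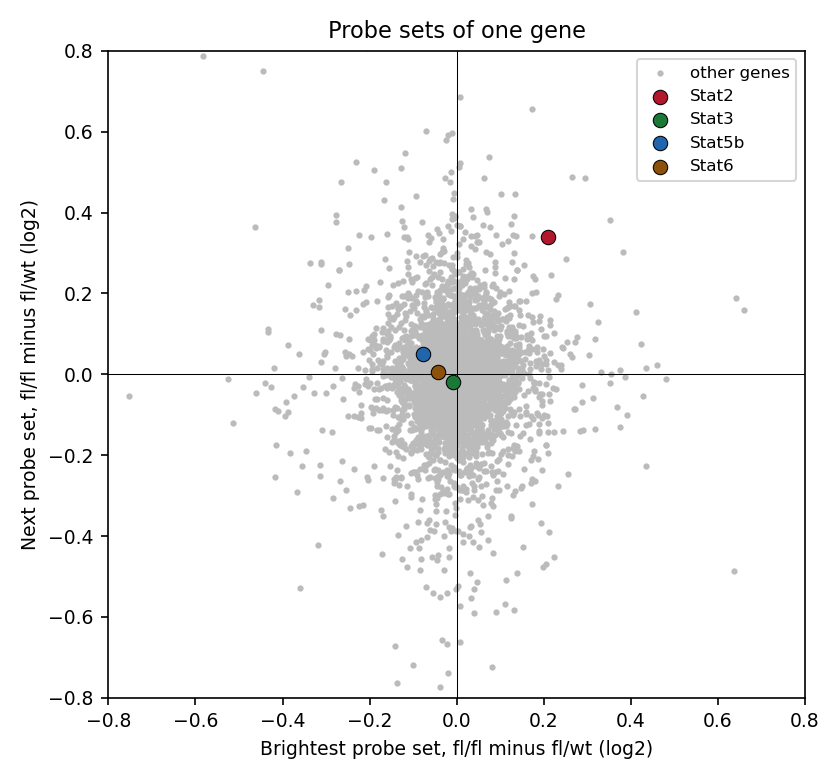
Difference, fl/fl minus fl/wt (log2), of the brightest measured probe set of a gene against that of its next measured probe set, with 4228 genes in grey and the 4 Stat genes that have both in colour. Stat2 lies in the upper right at 0.21 and 0.34, while Stat3, Stat5b and Stat6 lie near the origin; 7 genes fall outside the axes.

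The genes that act before and after each Stat were read by their brightest probe set in the same way. None of the 4 Janus kinases, 16 Stat inhibitors or 16 measured cytokine receptor chains differed by 1.5-fold, beside 0.645% of all 9774 genes. All counts of higher and lower list members here and below stand beside 47.5% higher in fl/fl over all genes. The kinases Jak1 (0.072) and Jak3 (0.035) were higher in fl/fl, and Jak2 (-0.026) and Tyk2 (-0.020) were lower, with a second Tyk2 probe set at 0.018. The inhibitor list had a median of -0.030, with 7 members higher and 9 lower in fl/fl. Among them were Socs5 (0.13), Socs4 (0.12) and Pias4 (-0.13). Other Pias4 probe sets had both signs, and a second Socs4 probe set differed by -0.036. The receptor list had a median of -0.023, with 6 members higher and 10 lower, and the IL-15 receptor chain Il15ra at 0.093.

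For Stat2, the receptor chains Ifnar1 and Ifnar2 differed by -0.17 and -0.0079, in each case with other measured probe sets of the opposite sign, and its partner Irf9 by 0.016. Of 18 measured interferon-induced genes that Stat2 with Irf9 is known to drive, 10 were higher and 8 lower in fl/fl, and their median was 0.0054 beside the Stat2 difference of 0.21. The antiviral GTPase Mx1 differed by 0.31 and Ifit1 by 0.082, and Oasl1 and Xaf1 differed by -0.18 and -0.12, with a second Xaf1 probe set at 0.36. The central 95% at the level of Mx1 ran from -0.29 to 0.27. A match to GAAANNGAAA was found in 8 of the 17 start windows of the listed genes, or 47.1%, against 3.44% of all windows.

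For Stat3, the shared receptor chain Il6st differed by 0.015 and the IL-6 receptor Il6ra by 0.10. Other measured Il6st probe sets ran from -0.068 to 0.041. Of 16 measured target genes, 8 were higher and 8 lower in fl/fl, with a median of -0.0016 and Fosl2 (-0.29), Ier3 (-0.17) and Bcl3 (0.070) at the ends beside Il6ra. Socs3, the inhibitor that Stat3 induces, read 12.76 in both arrays, a difference of 0.0063, and its other measured probe sets differed by 0.057 and 0.085. None of the 3 Socs3 probe sets was lower in fl/fl, but how often 3 probe sets of a gene share a sign was not counted. The central 95% at the level of the brightest Socs3 probe set ran from -0.11 to 0.11.

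For Stat5a and Stat5b, the IL-2 receptor chains Il2ra and Il2rb differed by -0.10 and 0.0012, and a second Il2rb probe set by -0.047. The central 95% at the level of Il2ra ran from -0.083 to 0.095, and a second Il2ra probe set differed by -0.014. Of 14 measured target genes, 3 were higher and 11 lower in fl/fl, with a median of -0.071, a list already known to lean this way when it was chosen. The cytotoxic genes Gzmb and Prf1 were 2 of 14 past 1.5-fold lower, beside 0.399% of all genes. Both figures include genes at or above log2 5 in only 1 array. Gzmb read 9.78 in fl/fl and 10.46 in fl/wt. Prf1 was under log2 5 in fl/fl (4.81) and at 5.63 in fl/wt, so it was at least 1.54-fold lower. Cish, the inhibitor that Stat5 induces, read 12.81 in fl/fl and 12.93 in fl/wt, a difference of -0.12. The central 95% at the level of Cish ran from -0.11 to 0.11. By construction some probe sets lie outside such a range at every level. Some larger differences of dimmer listed genes lay inside theirs, such as Fosl2 (-0.29, range -0.52 to 0.47). In the other direction, Osm differed by 0.11 and Lta by 0.055. Socs1 was under log2 5 in fl/fl (4.90) and at 5.11 in fl/wt. Prf1 and Socs1 entered the counts only through fl/wt, so each could only be counted as lower. The same holds for Socs1 among the inhibitors.

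The start windows of Cish and Socs3 are shown because each holds TTCNNNGAA, the letters that Stat5 and Stat3 pairs bind, in capitals. Both come from RefSeq GRCm38.p6, chr9:107296409-107296708 on the plus strand and chr11:117969317-117969616 on the minus strand.
Cish: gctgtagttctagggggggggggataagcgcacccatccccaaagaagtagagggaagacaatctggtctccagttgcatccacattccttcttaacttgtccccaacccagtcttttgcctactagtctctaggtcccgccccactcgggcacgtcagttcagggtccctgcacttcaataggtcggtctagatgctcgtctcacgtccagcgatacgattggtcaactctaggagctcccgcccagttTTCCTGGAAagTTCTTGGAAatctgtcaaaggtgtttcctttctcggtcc
Socs3: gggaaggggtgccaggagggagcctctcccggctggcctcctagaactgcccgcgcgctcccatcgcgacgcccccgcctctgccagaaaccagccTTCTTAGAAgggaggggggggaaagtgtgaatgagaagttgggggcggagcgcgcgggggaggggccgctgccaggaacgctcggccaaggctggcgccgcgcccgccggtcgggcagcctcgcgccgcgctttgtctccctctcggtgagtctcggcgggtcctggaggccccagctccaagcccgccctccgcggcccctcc
Cish holds 2 matches, at bases 251 to 259 and 262 to 270 of its window, and Socs3 holds 1, at bases 97 to 105. Of the 17 windows of listed Stat5 targets, 6 had a match, or 35.3%, and of the 18 windows of listed Stat3 targets 2 had one, or 11.1%, against 8.30% of all windows.

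For Stat6, the receptor chains Il4ra and Il13ra1 differed by -0.024 and -0.36, and a second Il13ra1 probe set by -0.53. The brighter Il13ra1 probe set was dim, at a level where the central 95% ran from -0.62 to 0.47. Of 7 measured Stat6 targets, 2 were higher and 5 lower, with Gata3 at -0.071, Epas1 at -0.11, Ccr8 at 0.041 and Il4 at 0.015. For Stat4, the receptor chain Il12rb1 differed by -0.11, and its partner Il12rb2 was under log2 5 in both arrays. Of 7 measured Stat4 targets, 2 were higher and 5 lower, with Tbx21 at -0.063, Furin at 0.082 and Ifng at 0.022.

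**Figure D4:**
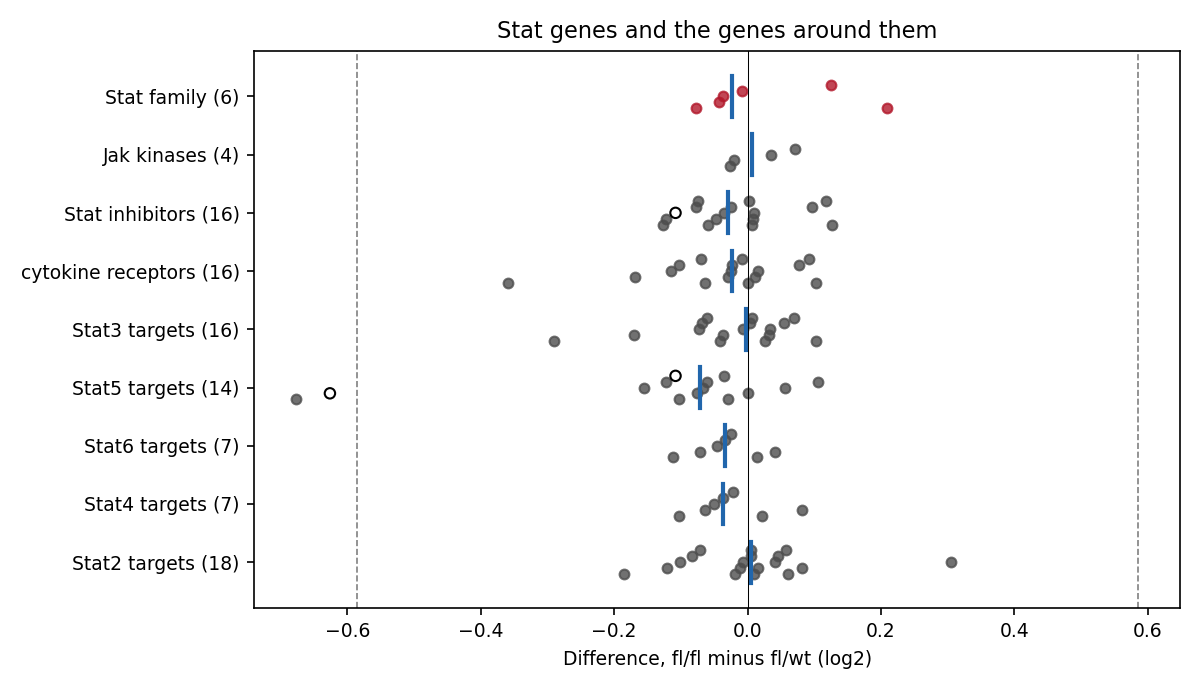
Difference, fl/fl minus fl/wt (log2), of each measured gene, with Stat genes in red, genes of the 8 other lists in grey, list medians as blue bars and lower bounds as open circles; the number of measured genes stands in brackets. Dashed lines mark 1.5-fold, which no Stat gene reaches and which Gzmb and Prf1 pass on the lower side.

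The cells were checked against marker genes. Of 8 Treg markers, 7 were measured, with Ctla4 at 14.87 in fl/fl and 14.91 in fl/wt, while Foxp3 did not reach log2 5 in either array, reading 3.52 in fl/fl and 4.09 in fl/wt. Markers of other cells were also present: of the markers with a probe set of their own, 5 of 6 myeloid, 4 of 5 B cell, 3 of 5 CD8 and NK, 1 of 5 dendritic and 1 of 2 red cell markers reached log2 5. On the linear scale the measured Treg markers summed to 96933 in fl/fl and 98567 in fl/wt. The measured myeloid markers summed to 34382 in fl/fl and 34640 in fl/wt, and the B cell markers to 1620 in fl/fl and 1707 in fl/wt. The CD8 and NK markers summed to 2297 in fl/fl and 2293 in fl/wt. The dendritic marker Itgax read 129 in fl/fl and 112 in fl/wt, and the red cell marker Alas2 read 62.9 in fl/fl and 76.6 in fl/wt. Among the measured myeloid markers Csf1r was the brightest, followed by Cd68 at log2 12.62 in fl/fl and 12.67 in fl/wt. Csf1r and Cd68 read higher than every Stat probe set in both arrays. Because probe sets differ in how well they bind, these levels and sums do not give shares of cells. The markers Itgam, Pax5, Ncr1, Klrk1, Flt3, Siglech, Zbtb46, Xcr1 and Hba-a1 were under log2 5 in both arrays. The part of other cells in the Stat levels was not tested.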

How the data were processed

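Per the labels' protocols, total RNA of sorted Treg was made into biotinylated cRNA for Affymetrix arrays. The values deposited by the authors are log2 levels from 2 arrays, 45101 probe sets each, made with GCRMA per the submitters' processing notes. The GCRMA version and settings, and any further arrays normalised alongside, are not given in the sources read. The log2 scale was read from the values, with medians of 3.50 (fl/fl) and 3.47 (fl/wt). GCRMA corrects background by probe sequence, which compresses dim values, and normalises arrays to each other, which removes overall shifts.

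Probe sets were named by the platform annotation, and all 13 Stat probe sets matched RefSeq GRCm38.p6 by Entrez identifier. A gene was represented by its brightest probe set. Genes had to reach log2 5 in 1 array or both, and lower values were raised to 5. Every Stat probe set is named. From each of the 8 other lists the largest differences in each direction (up to 2) and the main receptors and inhibitors are named. Genes outside this rule (neighbours of Stat3, Itgax, Alas2 and the other markers set beside Stat2) were chosen after their values were seen. The members, lists and alternatives were chosen with earlier results of these data known. With 2 arrays, likeness of pattern between genes could not be measured. Alternatives were other floors, 32 added before log2, other probe set rules and 3 scalings. The counting was tested on simulated data with large shifts and less noise than these arrays show at dim levels. That checks the code and not the counts given here. Python 3.11.15, pandas 2.3.3 and statsmodels 0.14.6 (loess) were used. The number of arrays limits the precision.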

Additional observations from a re-analysis of the deposited data

How the results depend on the processing

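No paired analysis was possible because each genotype has 1 array, and for the same reason no array could be left out. Over 9 alternatives each, no Stat gene changed sign and none passed 1.5-fold. Several alternatives could not move a Stat gene. Every brightest Stat probe set lies above log2 6 and lacks the suffixes _s_at and _x_at. The other floors, the lack of a filter and the suffix rule therefore left all Stat values as they were. Stat4, with 1 probe set, could not move with the median of all probe sets either. These fixed values are among the 135 counted below. Stat2 ran from 0.17 to 0.27, Stat3 from -0.051 to -0.0030, Stat4 from -0.069 to -0.032, Stat5a from 0.094 to 0.13, Stat5b from -0.11 to -0.014 and Stat6 from -0.075 to -0.019. Over all genes, 24 were at least 1.5-fold higher and 39 lower. Lowering the floor to log2 4 gave 44 and 58, and raising it to 6 gave 16 and 14. The counts were 76 and 95 with no filter and no floor, and 10 and 7 with 32 added. A 2-fold threshold gave 3 and 2, by construction. Centring each array on its median, which moved the median of all genes by 0.031, gave list medians of -0.061 for inhibitors, -0.055 for cytokine receptors, -0.033 for Stat3 targets and -0.026 for Stat2 targets. With the median of all probe sets the median was 0.020 for inhibitors and -0.026 for Stat5 targets; the cause was not tested. Of 135 differences and list medians recomputed, 129 moved by less than a tolerance taken from the spread between probe sets of a gene (its SD of 0.12 for a gene, and that SD divided by the square root of the number of members for a list median). Signs changed for 10 values, all of them list medians. Of these 10, 6 belong to the Stat3 targets, whose median of -0.0016 lies next to 0, and 1 each to the inhibitors, the Stat6 targets, the Janus kinases and the Stat2 targets. The last pair changed sign only with centring, which shifts every gene alike. Both Stat2 probe sets lie at dim levels, where the arrays scatter widely.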
